A study of Mus musculus with 30 samples.

Results

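The tumours that carried the R108G form of the epidermal growth factor receptor EGFR were set against those that carried R108K, 2 exchanges of the same arginine, in a mouse model of glioblastoma. All 3 R108G libraries and all 4 R108K libraries entered, that is 7 of the 30 libraries of the series, and every gene was considered. Each library held the polyadenylated RNA of 1 bulk cortical tumour, taken with the surrounding tissue it contained at postnatal day 70. R108G replaces the arginine by glycine and R108K replaces it by lysine, and the labels name no other difference between the groups. They do not give the mouse strain, the promoter, the way in which the receptor was delivered or whether its sequence was mouse or human. The other libraries came from tumours with mCherry, wild-type EGFR, A289I, A289V, R222C or T263P, and from normal cortex. They served to estimate the spread of each gene and as a backdrop for single libraries.

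EGFR is a receptor tyrosine kinase at the cell surface. Ligands of the EGF family bind its extracellular part, which then pairs with another receptor and signals through RAS and ERK and through PI3K and mTOR. The residue that both names give lies in the extracellular part, where many of the receptor mutations of human glioblastoma are found. The arginine is also encoded by the mouse gene, in exon 3 of Egfr on the plus strand of chromosome 11 of GRCm38 (mm10). The codon, counted from the start codon, is at chr11:16860149-16860151. It is shown in capitals in the stretch chr11:16860119-16860181, read from the reference genome and not from the tumours, to place the residue that both groups change:
Egfr codon of the exchanged arginine: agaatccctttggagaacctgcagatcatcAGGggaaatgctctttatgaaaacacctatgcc

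The 3 R108G libraries held 19094450, 18933839 and 14280294 reads, and the 4 R108K libraries 2784129, 13070256, 14484042 and 5100515. Levels are given as RPM, read counts after the size factors of the authors and scaled to about the usual reads-per-million range, so that 1 read stood for 0.04997 to 0.0669 RPM in R108G libraries and for 0.0755 to 0.383 RPM in R108K libraries. R108K library 1 was thus the shallowest, and small values in it rest on few reads. The sample numbers in the titles were all above 37 in R108G and all at or below 37 in R108K, so the variant and the range of numbers cannot be told apart within these 7 libraries. The labels do not say what the numbers stand for. The ribosomal RNA gene Rn45s took 0.211%, 0.229% and 0.796% of the reads in the R108G libraries and 0.343%, 0.248%, 4.57% and 2.47% in the R108K libraries. Markers of tumour tissue were above cortex in both groups, and they do not bear on which receptor a tumour carried. The summed level of 18 markers of oligodendrocyte precursors was 5800 to 8625 RPM in R108G tumours and 3693 to 8399 RPM in R108K tumours, against 1245 to 1350 RPM in normal cortex. The summed level of 20 mitosis genes was 970 to 1818 RPM in R108G tumours and 1381 to 2347 RPM in R108K tumours, against 24.8 to 26.03 RPM in cortex.

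Across all genes, few or no differences passed an adjusted threshold, depending on the test. Of 15824 genes tested, limma called 0 (0%) at a threshold of 0.05 on p-values adjusted by the Benjamini-Hochberg method. The lowest adjusted p was 0.0657, shared by 4 genes: Plxdc2, Abca3, Rab28 and C1d. edgeR's quasi-likelihood test on the recovered reads also called 0 genes, with a lowest adjusted p of 0.0586. DESeq2 on the same reads called 107 genes (0.676%), of which 47 (0.297%) were higher and 60 (0.379%) lower in R108G. Of these 107 genes, 80 had no overlap between the 3 R108G and the 4 R108K libraries. At an unadjusted limma p of 0.05, 1569 genes passed (9.92%), 818 of them higher in R108G (5.17%) and 751 lower (4.75%). The groups did not overlap in 1213 genes (7.67%), of which 665 were higher in R108G (4.2%) and 548 lower (3.46%). The median log2 fold change of all genes, R108G minus R108K on log2(RPM + 1), was 0.02. An exact permutation test of 3 tumours against 4 cannot give a two-sided p under 0.0571 for a single gene. Every other p here measures a spread between libraries, pooled over the 9 groups of all 30 libraries, normal cortex included. With only the 7 libraries in the fit, the lowest adjusted p of limma was 0.625.

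By median correlation, R108G libraries were slightly more alike than libraries of different variants, and R108K libraries were slightly less alike. Over the genes tested, Pearson's r of log2(RPM + 1) was 0.930 to 0.960 among the 3 pairs of R108G libraries and 0.909 to 0.940 among the 6 pairs of R108K libraries. It was 0.907 to 0.945 among the 12 pairs of an R108G and an R108K library. The medians were 0.943 within R108G, 0.917 within R108K and 0.928 between the variants.

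The receptor transcript was the first readout, since each tumour was made with a form of EGFR. Egfr had 17.5, 732 and 52.3 RPM in R108G libraries 1, 2 and 3, against 634, 197, 308.3 and 137 RPM in R108K libraries 1 to 4. R108G libraries 1 and 3 lay below every R108K library and library 2 above all of them, so the groups overlapped. The exact Poisson 95% interval, which covers counting error only, was 15.7 to 19.4 RPM in R108G library 1 and 48.7 to 56.1 RPM in library 3. The 3 mCherry tumours had 22.1 to 35.4 RPM and the 3 tumours with wild-type EGFR 115 to 393 RPM. Library 1 of R108G was thus below all mCherry tumours, and library 3 was above them but below every wild-type and R108K tumour. Whether these 2 tumours still carried the added receptor was not tested, and the labels do not say whether its reads would count as Egfr. R108G libraries 1 and 3 are therefore R108G by their labels, and the medians of the main lists are also given for library 2 alone against the 4 R108K tumours. The log2 fold change of Egfr was -1.59 ± 1.02 (SE), with a 95% interval of -3.70 to 0.51 (limma adjusted p = 0.605). With R108G library 2 alone it was 1.44.

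Of the 15 receptors and ligands of the EGFR family, 13 passed the filter on low values. The mean was higher in R108G in 10 of them and lower in 3 (all genes tested: 51.6% higher, 48.4% lower), with a median log2 fold change of 0.30 and no member whose groups were apart. Without R108G library 1 the median was 0.14, without library 3 it was 0.48, and with library 2 alone it was 0.16. Among the receptors, Erbb2, a partner of EGFR that binds no ligand of its own, had 23.8, 3.12 and 5.08 RPM in R108G and 1.53, 6.06, 1.66 and 2.64 RPM in R108K. Only R108G library 1 exceeded R108K library 2, and the log2 fold change of 1.23 ± 0.54 did not pass (limma adjusted p = 0.462). Erbb3, a neuregulin receptor with a weak kinase, had 162, 115 and 53.4 RPM in R108G and 54.4, 21.7, 113 and 30.2 RPM in R108K (1.14 ± 0.88). The ligand Tgfa had 86.3, 184 and 81.3 RPM in R108G and 260, 39.0, 206 and 345 RPM in R108K (-0.59 ± 0.55). R108K library 2 was the lowest of the 7 in Tgfa and the other R108K libraries the highest. Nrg3, a ligand of ERBB4, had 1.55, 7.9997 and 7.76 RPM in R108G and 3.07, 1.40, 0.604 and 2.64 RPM in R108K (1.09 ± 0.69). None of the members passed limma, edgeR or DESeq2.

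**Figure D1:**
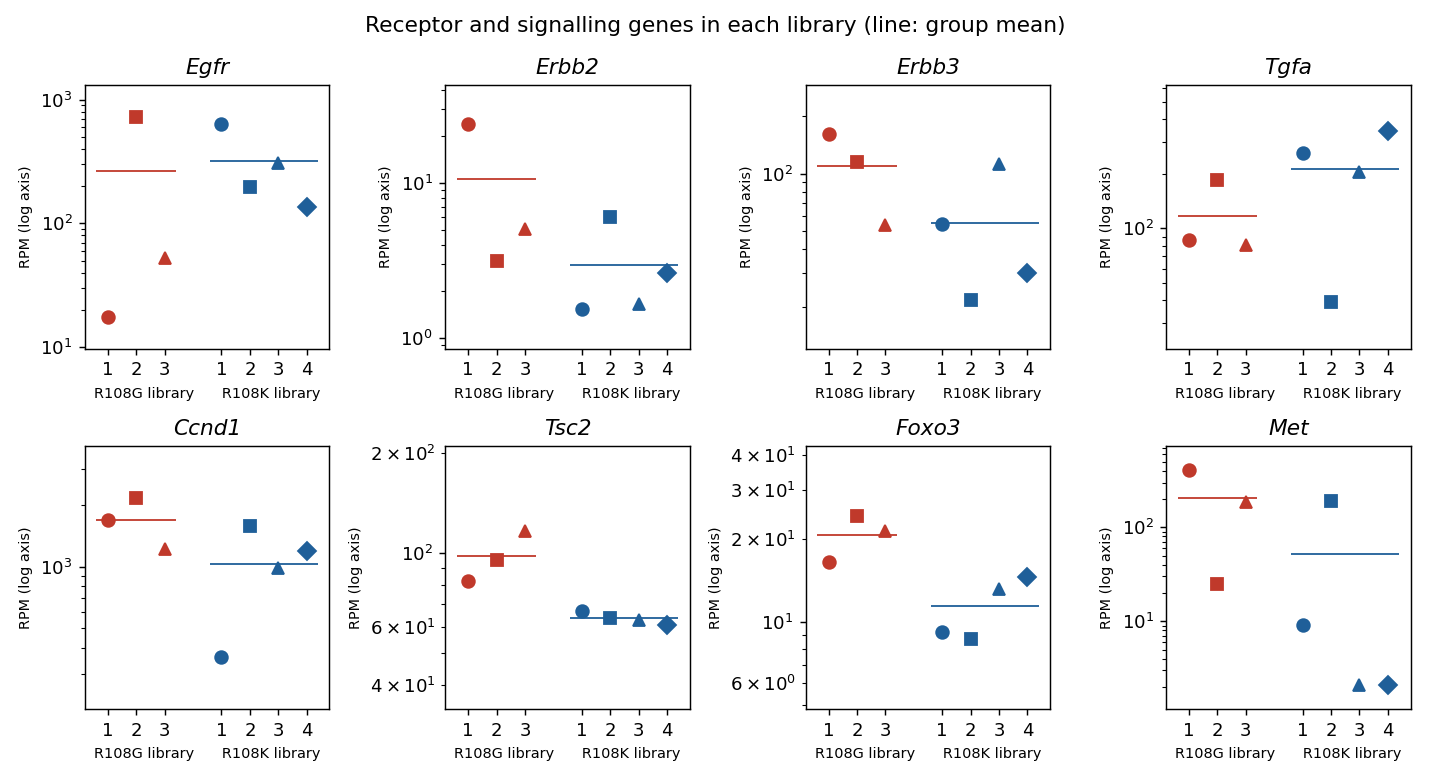
Level of 8 receptor and signalling genes in RPM (log axis) in each R108G library (red) and R108K library (blue), with the group mean as a line. Egfr ran from 17.5 to 732 RPM within R108G, Tsc2 was apart between the groups, and Met was at least 186 RPM in R108G libraries 1 and 3 and R108K library 2.

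Genes downstream of the receptor were read next. ERK switches on its own inhibitors, the Sprouty, Spred and Dusp genes, and transcription factors of the Etv family, so their levels are often used to follow the pathway. Of the 20 ERK feedback and target genes tested, 14 had a higher mean in R108G and 6 a lower one, with a median log2 fold change of 0.44 and no member apart. Without R108K library 3 the median was 0.09, and with R108G library 2 alone it was 0.43. Dusp7, a phosphatase of ERK, had 21.3, 36.3 and 38.6 RPM in R108G and 24.1, 20.7, 14.9 and 23.01 RPM in R108K (0.59 ± 0.29, limma adjusted p = 0.509). R108G libraries 2 and 3 were the highest and library 1 lay among the R108K libraries. Dusp5 had 2.60, 7.30 and 5.82 RPM in R108G and 1.92, 3.03, 1.06 and 2.45 RPM in R108K (0.96 ± 0.53). Spred2 had 27.4, 34.3 and 30.6 RPM in R108G and 14.6, 27.95, 16.3 and 23.8 RPM in R108K (0.59 ± 0.37). Ccnd1, which encodes cyclin D1 and is induced by ERK, had 1680, 2161 and 1225 RPM in R108G and 361, 1578, 989 and 1190 RPM in R108K (0.86 ± 0.60). In Dusp5 and Spred2 a single R108K library, library 2, reached into the R108G range, and in Ccnd1 it did as well. Etv5, Spred1, Etv1, Epha4 and Fosl1 had log2 fold changes between -0.16 and 0.00, and the whole list ran from -0.63 to 0.96. R108G library 1, with the lowest Egfr, was the highest of the R108G libraries in Etv4 (51.8, 37.6 and 31.7 RPM in R108G, against 59.0, 20.9, 9.89 and 40.7 RPM in R108K).

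The proteins that pass on or end the signal of EGFR were near parity. Of 18 adaptors and attenuators, 6 were higher and 12 lower on average in R108G (median -0.14), and all lay between -0.36 and 0.48. The groups were apart in 2 of them, 1 lower and 1 higher in R108G (3.46% and 4.2% of all genes were). Grb2, the adaptor that links the receptor to RAS, had 118, 147 and 134 RPM in R108G and 149, 147, 149 and 151 RPM in R108K (-0.17 ± 0.18). Its R108G libraries were all below its R108K libraries, the nearest by less than 1 RPM. Socs5, which promotes degradation of the receptor, had 61.9, 37.9 and 36.6 RPM in R108G and 29.9, 35.5, 26.3 and 35.1 RPM in R108K (0.48 ± 0.27). The groups of Socs5 were apart by a small margin.

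The PI3K and mTOR list held 18 genes, with 9 higher and 9 lower in R108G, but its members differed among themselves. Tsc2, whose product tuberin restrains mTOR, had 82.2, 95.2 and 116.8 RPM in R108G and 67.1, 63.8, 62.8 and 60.9 RPM in R108K. The groups did not overlap and the R108K libraries lay close together. The log2 fold change of Tsc2 was 0.60 ± 0.15 (limma adjusted p = 0.210, DESeq2 adjusted p = 0.0117). Foxo3, a transcription factor kept out of the nucleus by AKT, had 16.4, 24.1 and 21.3 RPM in R108G and 9.20, 8.70, 13.2 and 14.5 RPM in R108K. The groups of Foxo3 were apart as well (0.81 ± 0.28, limma adjusted p = 0.376). Tsc2 and Foxo3 were the only 2 of the 18 apart (4.2% of all genes were apart and higher).

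Other receptor tyrosine kinases were higher in R108G in 12 of 18 genes (median 0.37, or 0.59 without R108G library 1 and 0.10 without library 3). In this list 1 gene was apart and lower and 1 apart and higher (3.46% and 4.2% of all genes were). Fgfr2, a receptor of fibroblast growth factors, was apart and lower, with 25.4, 29.5 and 23.8 RPM in R108G and 47.9, 43.2, 30.9 and 47.9 RPM in R108K (-0.66 ± 0.46, limma adjusted p = 0.638). Ntrk3, the receptor of neurotrophin 3, was apart and higher, and had 63.8, 70.4 and 59.7 RPM in R108G and 33.7, 41.5, 25.2 and 56.6 RPM in R108K (0.76 ± 0.26, limma adjusted p = 0.376). Ddr1, a collagen receptor, had 529, 254 and 471 RPM in R108G and 151, 351, 201 and 279 RPM in R108K. Met, the receptor of hepatocyte growth factor, was picked out for its spread after its values were seen. It had 411, 25.2 and 186 RPM in R108G and 9.20, 192, 2.11 and 2.07 RPM in R108K. The high and the low Met tumours were found in both groups, and the log2 fold change of 3.43 ± 2.08 had a 95% interval of -0.86 to 7.73 (limma adjusted p = 0.580).

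Single genes were named by a rule. It took, in each direction, the 12 smallest p-values among genes whose groups did not overlap and whose mean was at least 5 RPM in the higher group. None passed limma or edgeR, and DESeq2 called all 24. Among those higher in R108G, Plxdc2, a cell surface protein with a plexin domain, had 48.3, 24.8 and 58.4 RPM in R108G and 5.75, 14.1, 11.3 and 12.3 RPM in R108K. The lowest R108G library was well above the highest R108K library. The log2 fold change was 1.90 ± 0.33 (limma adjusted p = 0.0657, DESeq2 adjusted p = 0.000155). In mCherry tumours Plxdc2 had 26.4 to 35.9 RPM, which is above all 4 R108K libraries. Abca3, a transporter of phospholipids, had 95.1, 125 and 140 RPM in R108G and 54.4, 72.4, 60.1 and 65.2 RPM in R108K (0.91 ± 0.17, limma adjusted p = 0.0657). Its R108K libraries lay in the range of the mCherry tumours or just below it (58.9 to 74.9 RPM), and the R108G libraries all lay above it.

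Of the other genes of the higher set, Atp2b4, a calcium pump of the plasma membrane, had 54.2, 71.5 and 121 RPM in R108G and 13.8, 14.8, 15.3 and 34.9 RPM in R108K (2.03 ± 0.40, limma adjusted p = 0.0687). R108K library 4 stood above the other 3 R108K libraries but below all R108G libraries. Kcnn3, a potassium channel opened by calcium, had 5.80, 6.29 and 15.04 RPM in R108G and 0, 2.17, 0.755 and 3.21 RPM in R108K (2.07 ± 0.45). The count of 0 in R108K library 1 allows up to 1.15 RPM at that depth. Tpcn2, a cation channel of lysosomes, had 14.04, 32.1 and 64.8 RPM in R108G and 5.37, 12.7, 10.7 and 11.7 RPM in R108K (1.59 ± 0.37). R108G library 1 was only just above R108K library 2 in Tpcn2, and library 3 carried the raised chromosome 7 stretch described further on, which holds this gene. Mboat1, which attaches fatty acids to lysophospholipids, had 9.71 to 13.8 RPM in R108G and 3.83 to 7.76 RPM in R108K (1.06 ± 0.26).

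The remaining 6 genes of the higher set were Aspg, Ak5, Crb2, Prdx6, Daam2 and Fam20a. Aspg, an asparaginase, had 25.5, 14.5 and 36.7 RPM in R108G and 1.53, 5.12, 3.70 and 12.1 RPM in R108K (2.17 ± 0.42, limma adjusted p = 0.0687). R108K library 4 came close to R108G library 2. In R108K library 3, Aspg lay in a lowered stretch of 10 genes on chromosome 12 (chr12:111758849-112674884). That stretch had a median of -1.08 log2 units against the median of the other 27 tumours, and Aspg had -1.67. Ak5, an adenylate kinase of brain, had 30.4, 55.0 and 49.7 RPM in R108G and 7.17 to 14.9 RPM in R108K (1.89 ± 0.44). Crb2, a protein of apical cell polarity, had 6.34 to 13.4 RPM in R108G and 0.383 to 4.04 RPM in R108K (1.92 ± 0.45). The gap between the groups was wide in Ak5 and narrow in Crb2. Prdx6, a peroxiredoxin that removes lipid peroxides, had 371, 275 and 519 RPM in R108G and 207, 131, 237 and 112 RPM in R108K (1.19 ± 0.29). Daam2, a formin of Wnt signalling, had 51.5 to 109 RPM in R108G and 15.2 to 42.9 RPM in R108K (1.38 ± 0.33). Fam20a, a pseudokinase of the secretory pathway, had 3.90, 4.78 and 14.3 RPM in R108G and 3.07, 1.48, 1.06 and 0.566 RPM in R108K (1.67 ± 0.42). In Fam20a only library 3 was far above the R108K libraries. Normal cortex had more than any R108G tumour of Atp2b4 (225 to 247 RPM), Ak5 (173 to 194 RPM) and Fam20a (16.8 to 17.2 RPM). It had less than any R108G tumour of Abca3 (64.5 to 66.0 RPM), Aspg (7.64 to 9.11 RPM), Tpcn2 (1.89 to 1.98 RPM) and Mboat1 (3.27 to 4.67 RPM). In the other genes of the higher set it overlapped the R108G range.

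**Figure D2:**
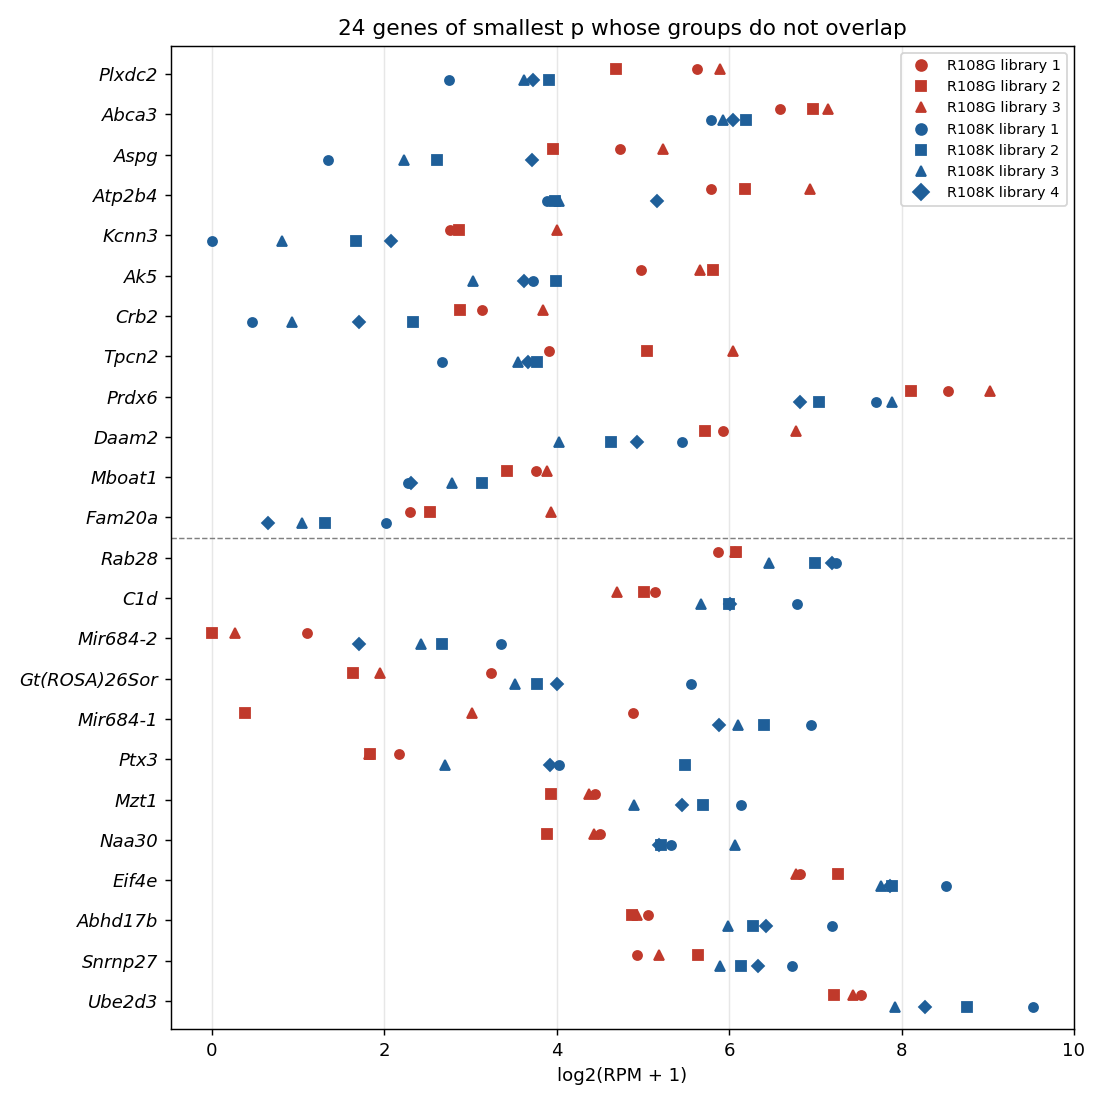
The 24 genes chosen by smallest p, with log2(RPM + 1) on the x axis for each R108G library (red, upper points of a row) and each R108K library (blue, lower points), genes higher in R108G above the dashed line and lower ones below it. The groups do not overlap in any row because the rule asked for that, and R108K library 1 is often the farthest from R108G.

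The 12 genes lower in R108G began with Rab28 and C1d. Rab28, a small GTPase of membrane traffic, had 57.7, 66.5 and 66.3 RPM in R108G and 150, 127, 87.1 and 145 RPM in R108K (-0.96 ± 0.18, limma adjusted p = 0.0657, DESeq2 adjusted p = 0.000155). C1d, a cofactor of the nuclear RNA exosome, had 34.4, 31.3 and 24.9 RPM in R108G and 109, 63.0, 50.04 and 63.6 RPM in R108K (-1.17 ± 0.22, limma adjusted p = 0.0657). R108G was tightly grouped in both genes, and R108K library 3 came nearest to it. Eif4e, which binds the cap of messenger RNA to start translation, had 112, 153 and 109 RPM in R108G and 365, 236, 216 and 232 RPM in R108K (-1.05 ± 0.23, limma adjusted p = 0.134). Ube2d3, an enzyme that conjugates ubiquitin, had 184, 148 and 173 RPM in R108G and 736, 432, 242 and 308.3 RPM in R108K (-1.22 ± 0.28). The highest value of both genes was in R108K library 1, the shallowest library. Snrnp27, a spliceosome protein, had 29.4 to 48.7 RPM in R108G and 58.5 to 105 RPM in R108K (-1.03 ± 0.23). Naa30, the catalytic subunit of an N-terminal acetyltransferase, had 13.7 to 21.7 RPM in R108G and 35.3 to 66.3 RPM in R108K (-1.18 ± 0.26).

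The rest of the lower set held an immune protein, a tubulin cofactor, an enzyme and 3 noncoding loci. Ptx3, a secreted pentraxin of innate immunity, had 3.498, 2.57 and 2.54 RPM in R108G and 15.3, 43.9, 5.51 and 14.1 RPM in R108K (-2.09 ± 0.45, limma adjusted p = 0.125). R108K library 3 was the closest to R108G. Mzt1, a part of the complex that seeds microtubules, had 14.2 to 20.8 RPM in R108G and 28.8 to 69.4 RPM in R108K (-1.296 ± 0.28). Abhd17b, which removes palmitate from proteins, had 28.2 to 32.3 RPM in R108G and 62.3 to 146 RPM in R108K (-1.52 ± 0.34). Both were tighter in R108G than in R108K. Gt(ROSA)26Sor, a noncoding transcript of the locus widely used for transgenes, had 8.39, 2.11 and 2.87 RPM in R108G and 46.0, 12.7, 10.4 and 15.1 RPM in R108K (-1.94 ± 0.41). The microRNA loci Mir684-1 and Mir684-2 had 28.4, 0.302 and 7.09 RPM and 1.15, 0 and 0.201 RPM in R108G, where the count of 0 allows up to 0.151 RPM. In R108K the same loci had 58.1 to 123 RPM and 2.26 to 9.20 RPM (-3.58 ± 0.76 and -2.08 ± 0.43).

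The sample numbers of the other groups gave no clean reading of their range. Of the 21 other tumours, 6 had numbers above 37, namely all 5 A289I tumours and 1 mCherry tumour, and 15 had numbers to 37, none of them A289I. Variant and range of numbers cannot be told apart there either. As a description, in 20 of the 24 genes the mean log2 level of the 6 differed from that of the 15 in the same direction as R108G from R108K, against 58.6% of all genes tested. Atp2b4, Kcnn3, Mboat1 and Fam20a were the exceptions. Eif4e had a median of 169 RPM in the 6 and 262 RPM in the 15, and Mir684-1 had 22.7 against 44.5 RPM. For Plxdc2 the medians were 30.3 and 26.5 RPM, a smaller gap than that between R108G and R108K.

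Short genes tended to be lower and long genes higher in R108G than in R108K. Among the 15204 genes with 1 position in the annotation, in 8 groups by exonic length, the median log2 fold change ran from -0.14 in the shortest (up to 1868 bases) to 0.13 in the longest (from 9017 bases). It increased from each group to the next. In the other tumours, the 6 above 37 (5 of them A289I) minus the 15 to 37, the same medians lay between -0.03 and 0.02. By library, against the median of all tumours, the trend lay mostly in R108K libraries 1 to 3. The shortest group had medians of 0.15, 0.16, 0.18 and 0.004 in R108K libraries 1 to 4, and the longest -0.07, -0.17, -0.155 and -0.07. In R108G libraries 1 to 3 the shortest group had 0.03, -0.02 and 0.01, and the longest -0.04, 0.025 and 0.01. The part of length in the fold changes of single genes was not tested.

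**Figure D3:**
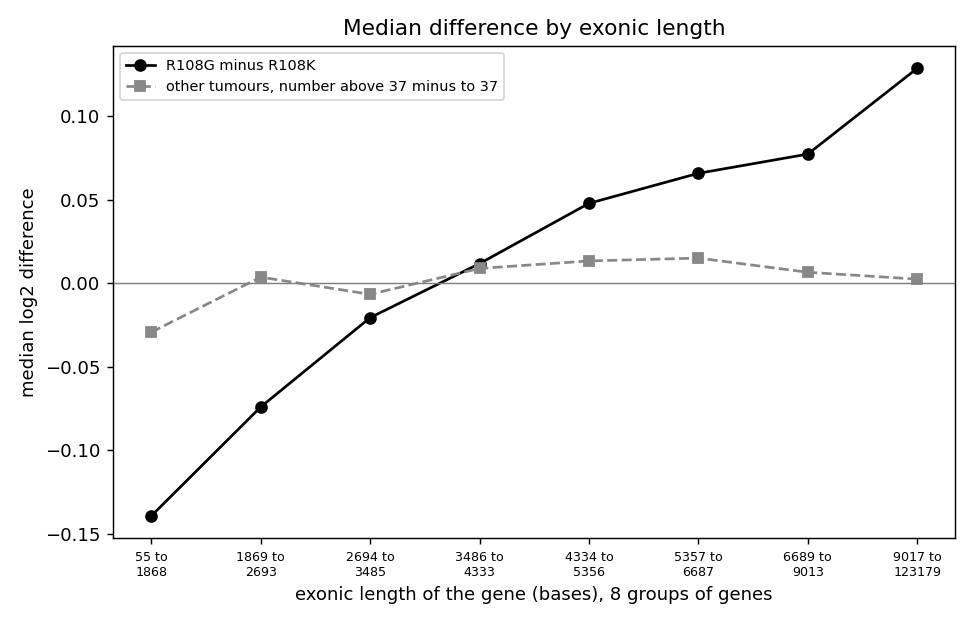
Median log2 difference (y axis) in 8 groups of genes ordered by exonic length in bases (x axis) for R108G minus R108K (black) and for the 6 other tumours with numbers above 37, of which 5 are A289I, minus the 15 to 37 (grey). The black line goes from -0.14 to 0.13 and the grey line stays between -0.03 and 0.02.

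Cell type markers were compared to ask what kinds of tissue the 2 groups of tumours held. In bulk RNA, fewer cells of a type and less RNA per cell cannot be told apart. All 25 neuron genes had a higher mean in R108G (median log2 fold change 1.19), but this came from 2 of the 3 tumours. The mean log2(RPM + 1) of the list was 4.92, 6.78 and 6.56 in R108G libraries 1, 2 and 3 and 5.15, 5.10, 4.69 and 5.11 in the R108K libraries. R108G library 1 lay among the R108K libraries and the other R108G libraries lay more than 1 log2 unit above them. Syn1, a protein of synaptic vesicles, had 50.3, 211 and 206 RPM in R108G and 40.6, 31.8, 33.7 and 36.4 RPM in R108K (1.84 ± 0.61, limma adjusted p = 0.358, DESeq2 adjusted p = 0.0392). Slc17a7, the vesicular glutamate transporter of cortical neurons, had 84.5, 541 and 589 RPM in R108G and 72.1, 71.9, 49.9 and 47.9 RPM in R108K (2.32 ± 1.06, limma adjusted p = 0.482). These were the only 2 of the 25 whose groups were apart (4.2% of all genes were apart and higher), and in both R108G library 1 was just above R108K. The summed level of the list was 1460 to 4286 RPM in R108G and 1295 to 1513 RPM in R108K, against 21566 to 21666 RPM in normal cortex. Without R108G library 2 the median was 0.70, without library 3 it was 0.72, and without library 1 it was 1.84. With library 2 alone it was 1.79.

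Immediate early genes, which neurons switch on when they fire and which growth factors induce in many cells, followed the neuron genes in part. The mean was higher in R108G in 19 of 20 (median 0.79). Arc, which is made at active synapses, had 6.85, 178 and 112 RPM in R108G and 15.7, 8.39, 7.77 and 9.81 RPM in R108K (2.29 ± 0.96, limma adjusted p = 0.454, DESeq2 adjusted p = 0.0353). R108G libraries 2 and 3 were far above all R108K libraries and library 1 below them. Of the 18 interneuron markers, 13 were higher in R108G (median 0.58). Of them all, 2 were apart and higher and 1 apart and lower (4.2% and 3.46% of all genes were). With the neuron list's mean in the fit, the interneuron median was -0.01 and 9 were higher. Calb1, a calcium buffer, had 11.3, 23.9 and 48.7 RPM in R108G and 6.13, 5.82, 1.74 and 9.43 RPM in R108K. Calb2, a related calcium buffer, had 5.996, 3.27 and 1.54 RPM in R108G and 7.28, 12.9, 7.77 and 13.4 RPM in R108K, the opposite order.

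The mean level of astrocyte markers was higher in all 3 R108G tumours, library 1 included, than in any R108K tumour. All 18 had a higher mean in R108G (median 1.02), 4 were apart and higher (4.2% of all genes were) and 8 were higher at an unadjusted limma p under 0.05 (5.17% of all genes were). With R108G library 2 alone the median was 0.77 and 14 were higher. The list mean was 7.36, 7.15 and 8.17 in R108G and 5.94, 6.92, 6.25 and 6.73 in R108K, with no overlap, and 8.12 to 8.17 in normal cortex. By summed level the groups nearly touched, with 5540 to 10025 RPM in R108G and 4106 to 5516 RPM in R108K. Normal cortex had a sum of 9745 to 10297 RPM. Slc1a2, the main glutamate transporter of astrocytes, had 239, 339 and 697 RPM in R108G and 50.2, 130, 90.7 and 134 RPM in R108K (2.01 ± 0.68, limma adjusted p = 0.371). Glul, which turns glutamate into glutamine, had 516, 657 and 582 RPM in R108G and 401, 319, 231 and 384 RPM in R108K (0.83 ± 0.30, limma adjusted p = 0.394). Both genes were apart. Gja1, the connexin of astrocyte gap junctions, had 65.2, 45.2 and 230 RPM in R108G and 8.43, 47.2, 11.55 and 16.8 RPM in R108K (2.32 ± 0.69, limma adjusted p = 0.331), and the second glutamate transporter Slc1a3 had 441, 374 and 751 RPM against 77.8, 326, 185 and 398 RPM (1.26 ± 0.45). In these 2 genes a single R108K library reached into the R108G range. With the neuron list's mean in the fit, the median of the astrocyte list was 0.71 and 17 of 18 genes were higher.

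**Figure D4:**
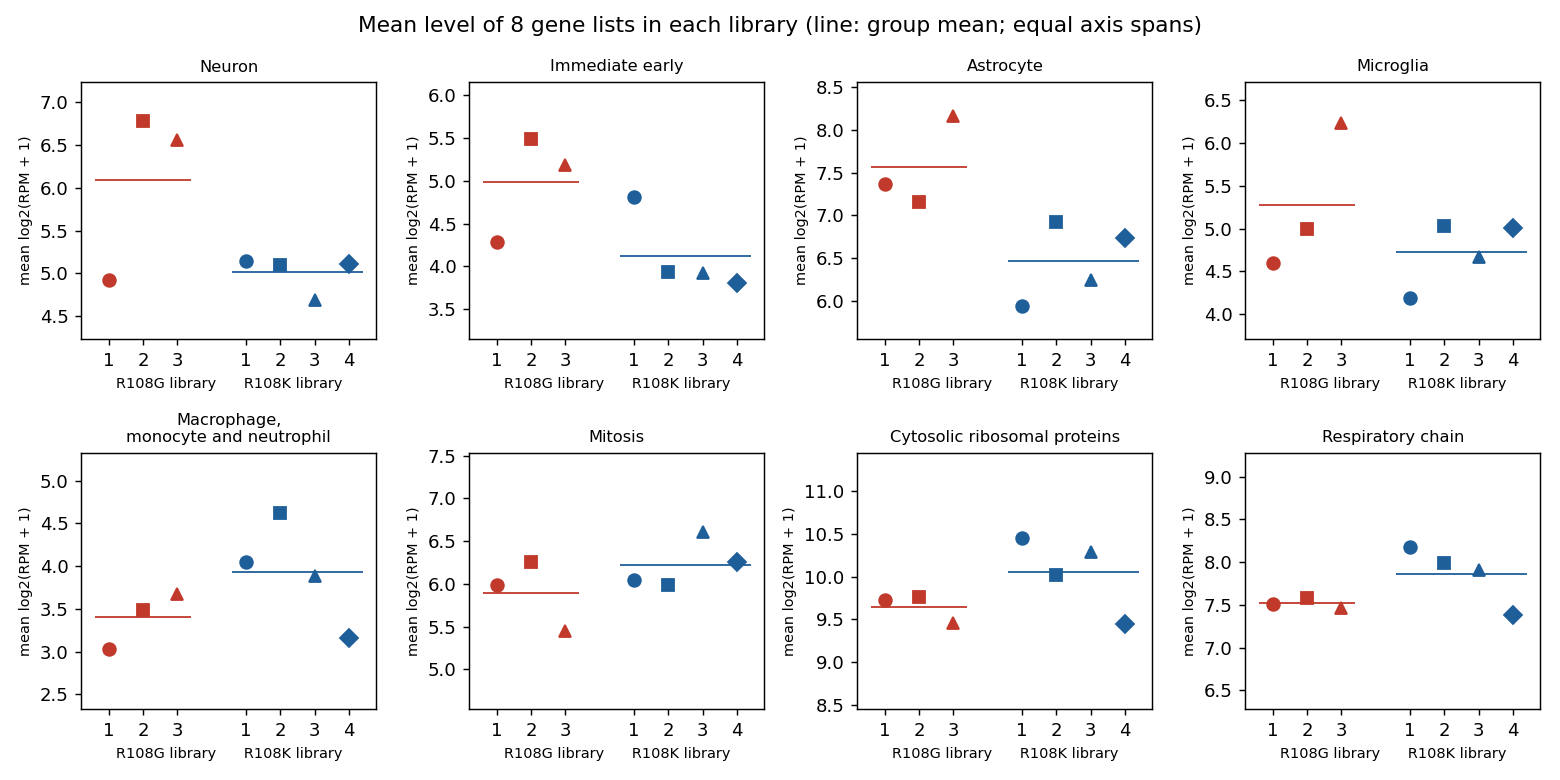
Mean log2(RPM + 1) of 8 gene lists (y axis, equal spans) in each R108G library (red) and R108K library (blue), with the group mean as a line. Neuron genes were high in R108G libraries 2 and 3 only, astrocyte genes in all 3, and the ribosomal and respiratory chain genes were high in 3 of the 4 R108K libraries.

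The oligodendrocyte lineage was near parity between the groups. Of 18 precursor genes, 12 were higher and 6 lower in R108G (median 0.17), with none apart, and without R108K library 2 the median was -0.10. Neu4, a sialidase of the lineage, had 112, 74.9 and 129 RPM in R108G and 31.05, 46.4, 39.3 and 111 RPM in R108K (1.02 ± 0.46, limma adjusted p = 0.469). R108K library 4 was almost as high as R108G library 1. Bcan, a proteoglycan of the brain matrix, had 1042, 584 and 647 RPM in R108G and 472, 377, 433 and 676 RPM in R108K (0.62 ± 0.44). Of 19 genes of myelinating oligodendrocytes, 14 were higher in R108G (median 0.38) and none apart. That median was 0.04 without R108G library 1 and -0.10 without R108K library 3. Mag, a myelin glycoprotein, had 306.1, 242 and 90.9 RPM in R108G and 126, 126, 18.2 and 117 RPM in R108K (1.29 ± 0.80). R108K library 3 was far below the other R108K libraries. Neural stem and progenitor genes were split, with 13 of 20 higher (median 0.23, or -0.02 without R108K library 1). Mesenchymal glioma genes were split as well, with 9 of 19 higher (median -0.06, or 0.27 without R108K library 2). Lgals3 of that list, a galectin of macrophages and mesenchymal cells, had 40.5, 84.8 and 58.2 RPM in R108G and 109, 1119, 70.9 and 74.5 RPM in R108K (-1.43 ± 0.77).

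Myeloid genes had average differences of opposite sign by subtype. The sign of the microglia median rested on R108G library 3. The macrophage median stayed negative in all 20 alternatives (-1.45 to -0.19), but its size depended on single libraries. Of 16 genes typical of microglia, 15 had a higher mean in R108G (median 0.53), whereas of 17 genes typical of macrophages, monocytes and neutrophils, 16 had a lower one (median -0.56). Cx3cr1, the chemokine receptor that marks microglia, had 44.4, 127 and 270 RPM in R108G and 28.7, 92.6, 70.9 and 67.9 RPM in R108K (0.93 ± 0.51, limma adjusted p = 0.548). Msr1, a scavenger receptor of macrophages, had 14.04, 39.4 and 9.23 RPM in R108G and 52.9, 56.7, 61.4 and 23.4 RPM in R108K (-1.34 ± 0.94, limma adjusted p = 0.635). Neither gene was apart, and no member of the macrophage list was. Without R108K library 2, whose summed level of that list was 6463 RPM against 577 to 1164 RPM in R108G and 702 to 1159 RPM in the other R108K libraries, the median was -0.20. With the neuron list as a covariate it was -0.19, and with R108G library 2 alone -0.41. The microglia median was -0.03, with 8 of 16 genes higher, without R108G library 3, which had the highest mean of that list (6.23, against 4.60 and 4.99 in the other R108G libraries and 4.19 to 5.03 in R108K). With R108G library 2 alone it was 0.36, with 10 of 16 higher.

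Of 23 chemokines and cytokines, 17 had a lower mean in R108G (median -0.52, or -0.16 without R108G library 1, -0.34 without R108K library 2 and -0.32 without R108K library 3). Ccl8, a chemokine that attracts monocytes, had 8.29, 36.9 and 9.29 RPM in R108G and 54.8, 121, 188 and 72.8 RPM in R108K. It was the only chemokine apart (-2.69 ± 1.10, limma adjusted p = 0.451), where 3.46% of all genes were apart and lower. T and NK cell genes were higher in 15 of 18 (median 0.27, or 0.09 without R108K library 1), and of 6 B and plasma cell genes tested, 2 were higher and 4 lower (median -0.04). Interferon response genes (9 of 23 higher, median -0.05, or 0.40 with R108G library 2 alone), MHC class I genes (5 of 13 higher, median -0.14) and MHC class II genes (4 of 11 higher, median -0.34) had no member apart. The MHC class II median was 0.36 without R108G library 1, the tumour with the lowest summed level of these genes (1817 RPM, against 4531 to 11618 RPM in R108K).

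Lists of vessels and supporting tissue had positive medians. Of 22 extracellular matrix genes, 19 were higher on average (median 0.68), with none apart. Col1a1, the main collagen of connective tissue, had 20.1, 20.4 and 146 RPM in R108G and 23.8, 30.6, 11.8 and 3.77 RPM in R108K (1.45 ± 0.72, limma adjusted p = 0.515). R108G library 3 alone exceeded the R108K libraries. Lamc1, a laminin chain of basement membranes, had 175, 144 and 171 RPM in R108G and 161, 83.0, 97.7 and 71.1 RPM in R108K (0.73 ± 0.42). Without R108G library 3 the median of the matrix list was 0.39 (0.45 without R108K library 4 and 0.12 with R108G library 2 alone), and that of the meningeal list 0.21. Meningeal and fibroblast genes were higher in 13 of 14 (median 0.62), with 2 apart and higher (4.2% of all genes were). Endothelial and pericyte genes were higher in 15 of 20 (median 0.28, none apart). The endothelial median was 0.10 without R108G library 3. The globin genes of red blood cells were listed at 0 in all 7 libraries.

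**Figure D5:**
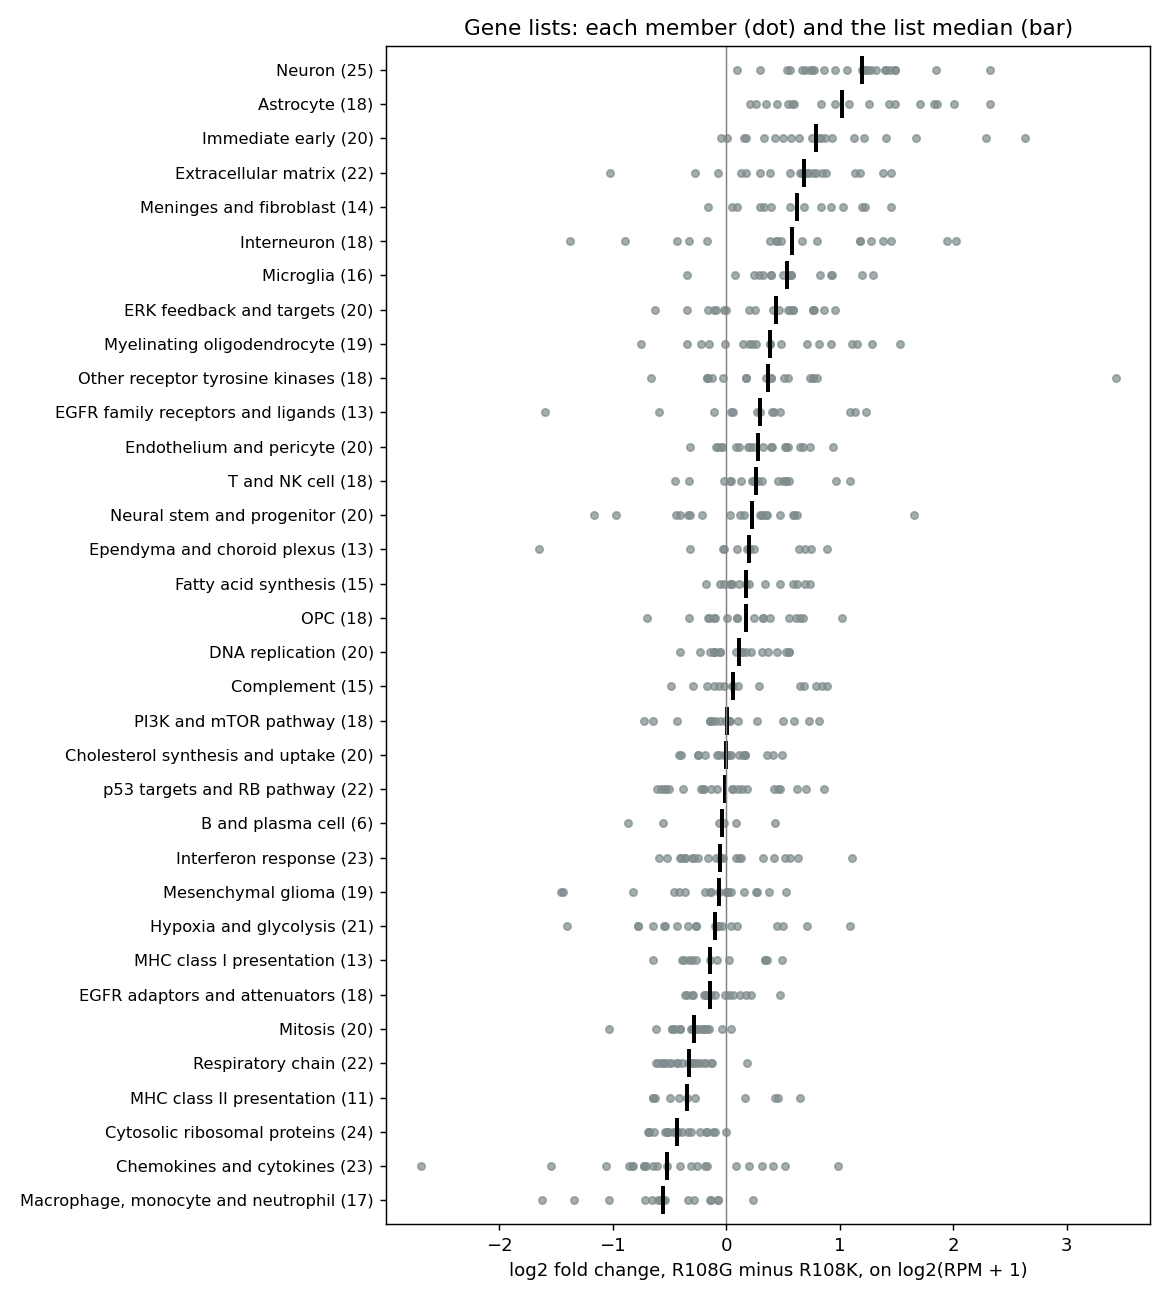
Log2 fold change on log2(RPM + 1), R108G minus R108K (x axis), of each tested member (dots) of 34 gene lists, with the number of members tested in parentheses and the list median as a bar. OPC stands for oligodendrocyte precursor cell. The medians run from 1.19 for neuron genes to -0.56 for macrophage, monocyte and neutrophil genes.

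Of the lists of growth, 3 had negative medians with none of their members past limma: ribosomal proteins, the respiratory chain and mitosis. All 24 genes of cytosolic ribosomal proteins had a lower mean in R108G, by a median of -0.44, where 48.4% of all genes tested were lower. Rpl5, which also binds MDM2, had 925, 1012 and 724 RPM in R108G and 1737, 1236, 1310 and 1398 RPM in R108K, and was apart (-0.68 ± 0.29, limma adjusted p = 0.457). Rplp1, of the ribosomal stalk, had 970, 754 and 894 RPM in R108G and 1703, 1783, 1668 and 752 RPM in R108K (-0.69 ± 0.27, limma adjusted p = 0.449). R108K library 4 was the lowest of the 7 in Rplp1. The summed level of the list was 17668 to 21653 RPM in R108G, 18735 RPM in R108K library 4 and 26671 to 34917 RPM in the other R108K libraries. The mCherry tumours had 20801 to 24572 RPM. Of the 24 ribosomal genes, 2 were apart and lower (3.46% of all genes were). Without R108K library 1 the median was -0.26, with the neuron list as a covariate -0.27 and with R108G library 2 alone -0.25. The shortest genes, among all genes, had a median of -0.14, and the part of length in the ribosomal genes was not tested.

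Of the nuclear genes of the respiratory chain, 21 of 22 had a lower mean in R108G (median -0.33), and 2 were apart (3.46% of all genes were apart and lower). Ndufa4, of complex IV, had 250, 189 and 159 RPM in R108G and 405, 233, 305.3 and 274 RPM in R108K (-0.60 ± 0.24, limma adjusted p = 0.451). Uqcrc2, of complex III, had 179, 190 and 117 RPM in R108G and 285, 301, 240 and 136 RPM in R108K (-0.53 ± 0.22, limma adjusted p = 0.451). R108K library 4 again lay with the R108G libraries in Uqcrc2. Without R108K library 1 the median was -0.22.

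Mitosis genes had a lower mean in R108G in 19 of 20 (median -0.28), and DNA replication genes in 9 of 20 (median 0.11, or -0.17 without R108K library 1). Bub1, a kinase of the spindle checkpoint, had 22.5, 30.5 and 14.8 RPM in R108G and 32.2, 32.6, 34.2 and 117 RPM in R108K (-1.03 ± 0.42, limma adjusted p = 0.451). Birc5, which encodes survivin, had 43.0, 45.2 and 32.4 RPM in R108G and 70.1, 56.0, 67.8 and 54.7 RPM in R108K (-0.62 ± 0.34). Both were apart, and they were the only 2 of the 20 (3.46% of all genes were apart and lower). The list mean was 5.98, 6.25 and 5.45 in R108G and 6.04, 5.98, 6.61 and 6.25 in R108K, so R108G library 3 was the low one. Without it the median was -0.10 and 7 genes were higher, without R108G library 2 it was -0.46, without R108K library 3 -0.15, with the neuron list as a covariate -0.06 and with R108G library 2 alone -0.02.

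The ribosomal RNA and small RNA list had 4 genes tested, all lower in R108G (median -1.22). Lars2, the leucyl-tRNA synthetase of mitochondria, had 1234, 949 and 1973 RPM in R108G and 3639, 3634, 5507 and 4190 RPM in R108K. The groups were apart (-1.66 ± 0.39, limma adjusted p = 0.152, DESeq2 adjusted p = 0.0193). Lars2 had 902 to 2656 RPM in A289I, all numbered above 37, and 1303 to 2458 RPM in mCherry tumours. Wild-type EGFR tumours had 1246 to 6231 RPM, A289V 2889 to 4694 RPM, R222C 3097 to 3836 RPM and T263P 3642 to 3993 RPM. In the 20 alternatives the log2 fold change of Lars2 lay between -2.14 and -0.94. Without R108K library 3 the list median was -0.69. Rn45s had 2011, 2177 and 7603 RPM in R108G and 3661, 2518, 50001 and 23734 RPM in R108K (-1.67 ± 1.08). R108K libraries 3 and 4 were far above the rest, and R108K libraries 1 and 2, which were high in Lars2, were not. The 20 alternatives for Lars2 include a fit with the Rn45s share as a covariate, chosen after seeing the data. Beyond that fit, a part of the ribosomal RNA share in Lars2 was not tested.

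Single tumours had large changes that the other 6 did not share, which are given as a description, since these genes were chosen for standing out in 1 library. In R108G library 1, Golt1b, a protein of vesicle traffic in the Golgi, had 947 RPM and Ldhb, a subunit of lactate dehydrogenase, 1744 RPM, against at most 71.7 and 218 RPM in the other 6. Col20a1, a collagen, had 476 RPM there and at most 60.8 RPM in the other 6, but reached 317 RPM among the other 21 tumours. R108G library 1 had the lowest Egfr of the 7.

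R108G library 3 had a raised stretch of 8 genes on chromosome 7 (GRCm38 chr7:143823145-145309557), with a median 2.03 log2 units above the median of the other 27 tumours. Of the 8 genes, 5 were more than 2-fold above that median, among them Tpcn2 and Cttn, the gene of cortactin, while Ccnd1 was 0.63 log2 units above it. In the same library Ntsr2, a neurotensin receptor of astrocytes, had 284 RPM and Papss2, which makes the sulphate donor of the cell, 108.04 RPM, against at most 27.2 and 11.2 RPM in the other 6. R108G library 2, with the highest Egfr, stood out in Ldoc1 (28.4 RPM, at most 0.233 RPM in the other 6), the receptor tyrosine kinase Alk (38.4 RPM, at most 3.73 RPM) and Npas4, a transcription factor of active neurons (65.9 RPM, at most 12.2 RPM).

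In R108K, library 1 had 418 RPM of Col8a1, a short-chain collagen, against at most 6.29 RPM in the other 6. Mybl1, a transcription factor of the MYB family, had 485 RPM there and at most 27.6 RPM elsewhere among the 7. Library 2 had 155 RPM of Kcnmb2, a potassium channel subunit, against at most 0.535 RPM in the other 6. It also stood out among the 7 in the growth-linked RNA and DNA binding proteins Igf2bp2 (65.8 RPM) and Hmga2 (65.1 RPM). Among the other 21 tumours the highest level was 2.56 RPM for Kcnmb2, but 93.0 RPM for Igf2bp2 and 252 RPM for Hmga2. Library 3 had 526 RPM of Cubn, an endocytic receptor of kidney and gut, against at most 3.498 RPM. Library 3 also had a raised stretch of 10 genes on chromosome 14 (chr14:46383520-47531962, median 1.51), in which 7 were more than 2-fold above the median of the other 27 tumours. They include Wdhd1 and Dlgap5, a gene of mitosis, but not Bmp4 (0.77) or Lgals3 (0.33). Another stretch of 9 genes on chromosome 17 (chr17:34028269-34197225, median 1.40) had 6 genes above it by as much, among them Tap1, Psmb9 and the H2-DM genes of antigen presentation. Library 4 had 169 RPM of Tex101 and 159 RPM of Park2, which encodes the ubiquitin ligase parkin, against at most 4.50 and 5.42 RPM.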

How the data were processed

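Polyadenylated RNA of bulk tumour was sequenced from stranded libraries, 1 per mouse, per the labels' protocols. The submitters' processing notes name FastQC, STAR 2.5.0a, DESeq2 1.20.0 and mm10 without their roles. The deposited signal per gene and library was a read count that the authors had divided by 1 size factor per library, tested on the values: all but 1 came to whole reads within 0.05 of a read. Deposited values were divided by 10.2638, the same for every library, and are called RPM. Recovered reads were 2784129 to 19094450 per library, and intervals cover counting error only.

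The 15824 of 24421 genes that reached 1 RPM in 3 or more of the 30 libraries were tested on log2(RPM + 1) with limma 3.58.1 in R 4.3.3 (9 group means, trend, robust, 21 residual degrees of freedom, two-sided). A gene rose or fell at an adjusted p under 0.05. edgeR 4.0.16 and DESeq2 1.42.0 were run on the recovered reads. The scripts were tested on simulated data. The comparison, the 37 gene lists and the rule for named genes were chosen with earlier results of these data known. The rule took 12 genes in each direction as stated beside them, up to 4 members of smallest p from each list, and the 5 genes per library that exceeded the other 6 by most. Predicted loci and sex-linked genes were passed over. Met was picked after its values were seen. Neighbouring genes were scanned in windows of 7. Positions and lengths came from GENCODE M21, which gave 96.1% of the genes tested 1 position. Tables and figures used Python 3.11.15. Some results are not reported here.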

Additional observations from a re-analysis of the deposited data

Results flagged for a closer look

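A value was picked out where the gap between 1 of the 4 R108K libraries and its nearest neighbour, as a share of the group's range, exceeded Dixon's critical value of 0.829. Groups of 3, as R108G is, are not tested, and chance alone picks about 1 in 20 groups. R108K library 1 was the highest in Eif4e (365 RPM), Sdr39u1 (721 RPM) and Mybl1 (485 RPM), and in the mean of the immediate early list (4.81 on the log2 scale). R108K library 2 was the highest in Thy1, a surface protein of neurons (107 RPM), and in Lgals3 (1119 RPM), Kcnmb2 (155 RPM), Igf2bp2 (65.8 RPM), the serotonin receptor Htr2a (57.3 RPM) and Hmga2 (65.1 RPM). R108K library 3 was the highest in Naa30 (66.3 RPM) and Cubn (526 RPM) and the lowest in Mag (18.2 RPM), in the mean of the myelin list (4.58) and in the mean of the neuron list (4.69). R108K library 4 was the highest in Atp2b4 (34.9 RPM), Bub1 (117 RPM) and Park2 (159 RPM) and the lowest in Rplp1 (752 RPM) and Msr1 (23.4 RPM). Sdr39u1, Mybl1, Kcnmb2, Igf2bp2, Htr2a, Hmga2, Cubn and Park2 had been chosen for standing out in 1 library, so their place here follows from that choice.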

How the results depend on the processing

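Of 20 alternatives, limma called 0 genes with 0.1 RPM as the pseudocount, without a filter, with a minimum of 5 RPM, after TMM rescaling, with only the 28 tumours, only the 7 libraries, and the neuron list mean or the Rn45s share (chosen after seeing the data) as a covariate, and edgeR called 0. It called 3 with library weights, 4 with a term for 2 ranges of sample number (a term set by 1 mCherry tumour against 2, since no other group spans both ranges, so it does not separate number from variant), 8 without R108G libraries 1 and 3 (which leaves R108G with 1 library, assumed to vary like the other groups), and 0 to 15 with 1 library left out: 15, 2 and 0 without R108G libraries 1, 2 and 3, and 0, 0, 7 and 9 without R108K libraries 1 to 4. DESeq2 called 107. None of the 24 genes of smallest p changed direction, and each passed in 1 to 4 alternatives, with DESeq2 always among them. The rule had asked for groups that did not overlap, so leaving out a library could not have turned their direction. Without R108G libraries 1 and 3, Egfr turned to 1.44 and Tgfa to 0.16 in log2 fold change. The median r between the variants was 0.961 with no filter and 0.896 with 5 RPM. No paired analysis was possible because the sample numbers in the titles are all different. Depth limits R108K libraries 1 and 4 most, where 3 reads stand for 1.15 and 0.566 RPM. With 3 and 4 tumours, large differences may go uncalled as well as small ones. Limma did not call Mir684-1 (log2 fold change -3.58) or Met (3.43).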

Other observations

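Lists not yet described had small medians. Hypoxia and glycolysis genes were higher in R108G in 6 of 21 (median log2 fold change -0.10, or -0.31 without R108G library 2 and -0.42 without R108K library 4). Pfkl, a phosphofructokinase of glycolysis, had 139, 219 and 259 RPM in R108G and 44.8, 120, 179 and 77.9 RPM in R108K. Fatty acid synthesis genes were higher in 12 of 15 (median 0.18, or 0.05 without R108G library 1), among them Fads2, a desaturase, with 178, 156 and 327 RPM in R108G and 90.1, 141, 157 and 168 RPM in R108K. Cholesterol genes were split 10 to 10 (median 0.00), and p53 targets and RB pathway genes 11 to 11 (median -0.01). Complement genes were higher in 9 of 15 (median 0.06, or 0.58 with 14 higher without R108G library 1 and -0.31 without R108G library 3) and ependymal and choroid plexus genes in 9 of 13 (median 0.21, or 0.45 without R108K library 2 and 0.09 without R108K library 4). Of the blood list only Alas2, the first enzyme of haem synthesis in red cells, was tested (0.69).

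Sex-linked transcripts cut across the variants. Xist had 202 RPM in R108G library 2 and 418 and 188 RPM in R108K libraries 1 and 3, and at most 0.450 RPM in the other R108G libraries and 2.26 RPM in the other R108K libraries. The Y-linked gene Ddx3y had 7.69 and 16.4 RPM in R108G libraries 1 and 3, against 61.7 and 33.9 RPM in R108K libraries 2 and 4. All 5 genes of the list overlapped between the groups.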
